A study of Mus musculus with 12 samples.

Results

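The 10 genes described here are Nfe2l2, which encodes the transcription factor NRF2, its inhibitor Keap1, and 8 enzymes of antioxidant defence that NRF2 is known to control: Hmox1, Nqo1, Gclc, Gclm, Gsr, Txnrd1, Srxn1 and Prdx1. They were taken by name, with every probe set annotated to them, out of 19324 gene symbols on the array. Together they have 24 probe sets, 9 of the 10 genes could be tested with the other genes, and Prdx1 was tested separately. The cells were follicular B cells from the spleen, sorted by the gate B220+ AA4.1- CD23hi CD21int, and the mice were 129SvEv males aged 8 weeks. They were wild type or labelled ZFXcko, a conditional deletion of the zinc finger transcription factor Zfx. The sorted cells of both genotypes were cultured in medium with 10 µg/mL of anti-IgM, which binds and clusters the surface IgM receptor, for 0, 2 or 12 h. These are called wild type (wt) and cko cells below. Each of the 6 groups had 2 arrays, 12 in all. The Cre line and the deleted exons of Zfx, and whether the 2 arrays of a group came from separate mice, were not given in the sources used here. Hence p-values measure the spread between arrays, which may be technical.

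NRF2 is held low in resting cells because KEAP1 binds it and passes it to a CUL3 ubiquitin ligase. Oxidants and electrophiles modify cysteines of KEAP1, after which NRF2 escapes degradation, pairs with a small MAF protein and binds antioxidant response elements near its target genes. The targets make glutathione, reduce thioredoxin and peroxiredoxins, break down heme and reduce quinones. Receptor signalling in B cells is itself a source of hydrogen peroxide. The activity of NRF2 is set largely at the protein level, which an RNA array does not read.

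The stretches of promoter below are shown because they are the places upstream of these genes where the core letters of the antioxidant response element were found. They are the 250 bases before the annotated start site, read from RefSeq (GRCm38.p6) on the gene's strand, 5′ to 3′, and the capitals mark the match to TGACNNNGC or its reverse complement GCNNNGTCA. Windows running from 250 bases before to 50 after the start were available for 7 of the 10 genes, and Gclc, Gsr and Hmox1 had none in the table. Nfe2l2 is at chr2:75704664-75704913 on the minus strand. Gclm is at chr3:122245307-122245556, Txnrd1 at chr10:82858956-82859205 and Prdx1 at chr4:116685349-116685598, all on the plus strand.
Nfe2l2: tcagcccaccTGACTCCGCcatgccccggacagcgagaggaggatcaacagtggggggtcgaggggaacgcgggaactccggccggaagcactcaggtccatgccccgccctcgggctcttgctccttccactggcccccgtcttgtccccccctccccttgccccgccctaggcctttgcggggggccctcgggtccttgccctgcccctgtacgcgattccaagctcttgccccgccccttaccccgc
Gclm: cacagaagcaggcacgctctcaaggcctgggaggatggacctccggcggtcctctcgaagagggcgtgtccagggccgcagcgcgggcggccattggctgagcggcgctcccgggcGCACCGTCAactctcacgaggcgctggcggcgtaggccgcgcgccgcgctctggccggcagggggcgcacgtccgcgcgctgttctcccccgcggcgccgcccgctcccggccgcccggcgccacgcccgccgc
Txnrd1: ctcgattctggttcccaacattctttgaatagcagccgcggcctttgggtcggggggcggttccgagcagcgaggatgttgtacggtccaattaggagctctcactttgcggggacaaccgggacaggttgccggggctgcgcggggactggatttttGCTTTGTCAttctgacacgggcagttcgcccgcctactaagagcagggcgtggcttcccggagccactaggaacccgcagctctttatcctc
Prdx1: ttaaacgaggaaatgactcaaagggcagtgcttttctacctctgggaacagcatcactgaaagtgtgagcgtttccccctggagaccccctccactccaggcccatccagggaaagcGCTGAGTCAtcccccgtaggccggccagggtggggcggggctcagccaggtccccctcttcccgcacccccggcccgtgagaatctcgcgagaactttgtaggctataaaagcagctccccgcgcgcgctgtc
The match began 240 bases before the start of Nfe2l2, 134 before that of Gclm, 92 before that of 1 of the 3 Txnrd1 windows and 133 before that of Prdx1. In Srxn1 it lay 29 bases after the start. With both strands searched, 5 of these 9 windows held the core, and so did 12.4% of the 32851 windows of all genes. The AP-1 letters TGACTCA or TGAGTCA stood in 5.2% of all windows, and among these genes in Srxn1 at 102 and 45 bases before the start and in Prdx1 at 237 and 131, the last of these overlapping the antioxidant response core printed above. Keap1 and Nqo1 held neither set of letters in this window. A match describes the letters and says nothing about binding in these cells.

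The authors deposited 1 linear signal intensity for each probe set on each array, and its 2% trimmed mean was 250 on every array. Differences below are on the scale log2(signal + 16), given ± SE from a fit over all 12 arrays with 2 per group, and a gene was called at a limma adjusted p under 0.05 over 21906 probe sets. A fold on that scale understates the change of dim genes. The number of arrays limits the precision. Duplicate arrays correlated at 0.974 to 0.984. The arrays fell apart by the 5′ to 3′ ratio of the actin control probe sets, a measure of how far the amplified RNA reached: it was 1.80 to 3.33% in both 0 h groups and in wild type at 12 h, and 8.41 to 19.1% in both 2 h groups and in cko cells at 12 h. The comparisons of the genotypes at 0 h and at 2 h, of 12 h with 0 h in wild type and of 12 h with 2 h in cko cells lie within a side of that division. Both 2 h responses, the 12 h response of cko cells, the change from 2 h to 12 h in wild type and the genotype comparison and interaction at 12 h cross it, and its part in those values cannot be told apart from time and genotype. Within a side the ratio still set the compared groups apart. On the lower side it was 3.27 and 3.33% in wild type at 0 h, 2.11 and 2.27% in wild type at 12 h, and 1.99 and 1.80% in cko cells at 0 h. On the upper side it was 8.51 and 8.41% in wild type at 2 h, 10.6 and 10.8% in cko cells at 2 h, and 19.06 and 18.96% in cko cells at 12 h. Its part in the comparisons within a side thus cannot be told apart either. Follicular B cell markers were present in all groups, with 9 of 10 listed genes above the filter and a summed signal of 70620 to 81830 at 0 h, 25940 to 29040 at 2 h and 30940 to 39420 at 12 h. That change runs alongside every response described here. Of the markers of other cells, the 8 neutrophil genes, all above the filter, summed to 19750 to 20590 in wild type and 7558 to 7643 in cko cells at 0 h, 15290 to 15370 and 2361 to 2633 at 2 h, and 6936 to 7861 and 3212 to 3373 at 12 h. T cell markers (7 of 8 on the array and summed, 6 above the filter) summed to 1167 to 1363 at 0 h and 328.2 to 490.4 later in both genotypes. The part of these markers' cells in the values below was not tested. The brightest Zfx probe set read 789.6 to 1041 on wild-type arrays and 974.2 to 2618 on cko arrays. Where it lies relative to the deletion was not analysed here, so it does not check the genotype labels.

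Nfe2l2 mRNA rose 4.94-fold in wild-type and 4.48-fold in cko cells within 2 h of receptor crosslinking and was back near its starting level at 12 h. In these bulk samples a change in the number of cells that hold a transcript and a change in the amount per cell cannot be told apart. Its brighter probe set (1416543_at) read 493.7 and 428.5 on the wild-type arrays at 0 h, 2436 and 2242 at 2 h, and 411.4 and 403.9 at 12 h. On the cko arrays it read 517.6 and 407.5 at 0 h, 2110 and 2121 at 2 h, and 582.1 and 601.8 at 12 h. All 4 arrays at 2 h lay far above the other 8, and the genotypes overlapped at 0 h. The 2 h response was 2.31 ± 0.11 in wild type (adjusted p = 3.33e-10) and 2.17 ± 0.11 in cko cells (4.76e-10), and the test of the difference between these responses did not pass (-0.14 ± 0.15, 0.597). At 12 h wild-type cells did not differ from 0 h by the test (-0.17 ± 0.11, 0.242). Cko cells were slightly higher at 12 h than at 0 h (0.35 ± 0.11, 0.0132) and than wild-type cells at 12 h (0.52 ± 0.11, 0.00121). The first of these calls was lost without cko 0 h replicate 2 (0.19) or cko 12 h replicate 2 (0.33).

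The other Nfe2l2 probe set (1457117_at) went the opposite way. It read 208.3 and 245.1 in wild type and 297.2 and 271 in cko cells at 0 h, and between 37.7 and 61.9 on all 8 later arrays. It fell at 2 h by 1.93 ± 0.23 in wild type and by 2.39 ± 0.23 in cko cells, and it remained low at 12 h. Over the 6 group means the paired probe sets correlated at -0.54. Which stretch of the transcript each probe set reads was not analysed here. With the mean of both probe sets in place of the brighter one, the 2 h response was 0.19 in wild type and -0.11 in cko cells, neither called, so the rise is a statement about the brighter probe set. At 12 h the averaged values were called lower than at 0 h in both genotypes (-1.08 in wild type and -0.91 in cko cells).

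Keap1, the substrate adaptor that marks NRF2 for degradation, moved against Nfe2l2 at 2 h. The signals of its brighter probe set (1450746_at) were 1057 and 988 in wild type at 0 h, 658.1 and 599 at 2 h, and 1139 and 1810 at 12 h. The cko arrays gave 1938 and 1488 at 0 h, 352.6 and 335.8 at 2 h, and 771.3 and 904.7 at 12 h. In both genotypes every 2 h array was below every 0 h array, and the cko arrays spanned more of the scale. Keap1 fell at 2 h by 0.69 ± 0.17 in wild type (adjusted p = 0.0035) and by 2.25 ± 0.17 in cko cells (4.22e-08). The responses differed by -1.56 ± 0.24 (0.000699). On the second Keap1 probe set that difference was 0.10 ± 0.46 (0.912). Both responses cross the actin division, and the actin ratio rose further in cko cells. It went from 1.99 and 1.80% to 10.6 and 10.8% there, and from 3.27 and 3.33% to 8.51 and 8.41% in wild type. Its part in this difference was not tested.

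At rest the genotypes differed the other way, with Keap1 higher in cko than in wild-type cells at 0 h (0.72 ± 0.17, adjusted p = 0.00689). That call was lost without wt 0 h replicate 2 (0.68) or cko 0 h replicate 1 (0.54). Keap1 was lower in cko cells at 2 h (-0.84 ± 0.17, 0.00334) and at 12 h (-0.77 ± 0.17, 0.00203). Keap1 rose again from 2 h to 12 h by 1.17 ± 0.17 in wild type and by 1.24 ± 0.17 in cko cells. Against 0 h it was higher at 12 h in wild type (0.48 ± 0.17, 0.036) and lower in cko cells (-1.01 ± 0.17, 0.000182). The wild-type call was lost without wt 0 h replicate 1 (0.53), wt 0 h replicate 2 (0.44) or wt 12 h replicate 2 (0.15), and the wt 12 h arrays lay far apart.

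A dim second Keap1 probe set (1450747_at), at 8.6 to 65.3 over all arrays, did not follow the bright one. It was higher in cko than in wild-type cells at 12 h (1.37 ± 0.32, limma adjusted p = 0.00294), where the bright probe set was lower. With the probe sets averaged, 9 Keap1 calls did not pass. The genotype difference was then 0.33 at 0 h, -0.40 at 2 h and 0.30 at 12 h. Wild-type values were -0.46 at 2 h, -0.24 at 12 h and 0.22 from 2 h to 12 h, and the cko value at 12 h against 0 h was -0.27. The interactions were -0.73 at 2 h and -0.03 at 12 h. The Keap1 statements thus rest on the brighter probe set.

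**Figure D1:**
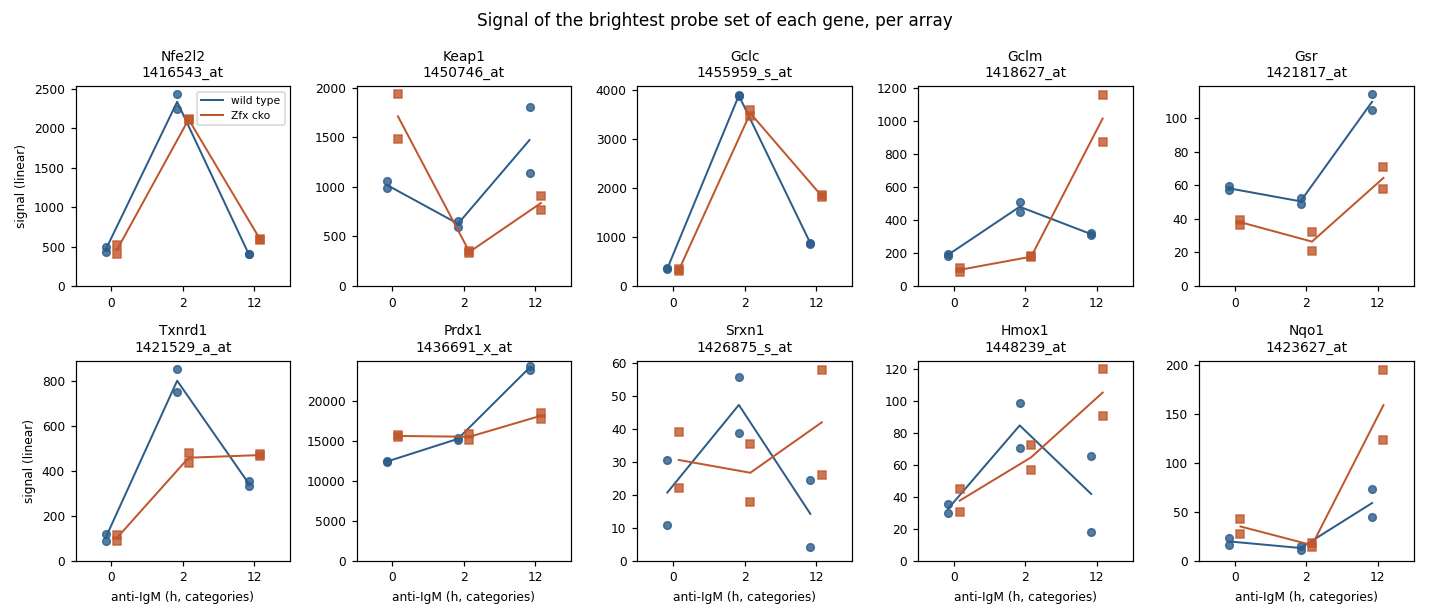
Signal of the brightest probe set of each of the 10 genes on each of the 12 arrays, on a linear axis from 0 set for each gene, by time of anti-IgM in h (spaced as categories). Blue circles are wild-type and orange squares cko arrays, and lines join the group means of 2 arrays. Nfe2l2 and Gclc peak at 2 h in both genotypes, Keap1 is lowest at 2 h in both, and Gclm is highest on the cko arrays at 12 h.

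Glutamate-cysteine ligase makes the first and rate-limiting step of glutathione synthesis, and both of its subunits responded, on different schedules. Gclc, the catalytic subunit (1455959_s_at), read 368.4 and 347.3 in wild type at 0 h, 3899 and 3878 at 2 h, and 886.8 and 860.4 at 12 h. In cko cells it read 308.1 and 338.1 at 0 h, 3469 and 3588 at 2 h, and 1854 and 1817 at 12 h. No group overlapped with another time of its genotype, and at 12 h both cko arrays stood at more than double the wild-type level.

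The 2 h rise of Gclc was the largest response against 0 h among these genes, 10.5-fold in each genotype (3.38 ± 0.07 in wild type, adjusted p = 3.24e-13, and 3.39 ± 0.07 in cko cells, 2.29e-13). The difference between those responses was 0.00 ± 0.10 (0.994). At 12 h Gclc was still above 0 h by 1.25 ± 0.07 in wild type (7.98e-09), a comparison within the lower side of the actin division, and by 2.45 ± 0.07 in cko cells (5.41e-12). It was higher in cko cells at 12 h by 1.06 ± 0.07 (4.59e-08). The second Gclc probe set (1424296_at) gave nearly the same pattern over the 6 group means, with 3.11 ± 0.11 and 3.26 ± 0.11 at 2 h and 0.88 ± 0.11 between genotypes at 12 h. It alone was lower in cko cells at 0 h (-0.39 ± 0.11, 0.0143), where the brighter one gave -0.14 ± 0.07 (0.184), and with both averaged the value was called (-0.27).

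Gclm, the modifier subunit that raises the activity of the catalytic one, set the genotypes apart at every time on its brighter probe set. Its signals (1418627_at) were 183.8 and 196.2 in wild type at 0 h, 451.4 and 511.3 at 2 h, and 308.3 and 321.8 at 12 h. The cko arrays gave 109.5 and 86.9, then 174.2 and 181.8, and then 1160 and 873.8. The genotypes did not overlap at any time: cko cells were below wild type at 0 h and 2 h and above it at 12 h. The differences were -0.86 ± 0.15 at 0 h (adjusted p = 0.000943), -1.36 ± 0.15 at 2 h (3.14e-05) and 1.63 ± 0.15 at 12 h (7.33e-07).

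Within wild type Gclm rose at 2 h (1.27 ± 0.15, adjusted p = 5.27e-06) and had partly returned at 12 h (0.69 ± 0.15 against 0 h, 0.00207). Within cko cells it rose less at 2 h (0.77 ± 0.15, 0.000502) and was far over its 0 h level by 12 h (3.17 ± 0.15, 4.2e-10). From 2 h to 12 h, within the upper side of the actin division, the cko value rose by 2.40 ± 0.15 (1.96e-08). Over the same span, which crosses that division in wild type, the wild-type value fell by 0.58 ± 0.15 (0.00472). The model with a term for the division has 1 effect of that span for both genotypes, 2.27. Its 12 h part comes from the cko arrays, so it does not test the wild-type fall. The responses at 2 h did not differ by the test (-0.50 ± 0.21, 0.137), and those at 12 h did (2.48 ± 0.21, 6.48e-07). The second Gclm probe set (1439050_at) was dim, at 3 to 60.8, and it was called lower in cko cells at 0 h (-1.05 ± 0.32, 0.0265). Between genotypes it gave -0.61 ± 0.32 at 2 h (0.214) and 0.29 ± 0.32 at 12 h (0.491), neither past the threshold. Its 2 h value was 0.61 ± 0.32 in wild type (0.125) and 1.06 ± 0.32 in cko cells (0.0113), the reverse order of the brighter one. At 12 h against 0 h it gave 0.14 ± 0.32 in wild type (0.771) and rose in cko cells (1.48 ± 0.32, 0.00133), with an interaction of 1.34 ± 0.46 (0.0307). It was called in neither genotype from 2 h to 12 h (-0.47 ± 0.32 in wild type and 0.42 ± 0.32 in cko cells). With both probe sets averaged, the wild-type 12 h value of Gclm was 0.41 and not called (0.0919).

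Gsr, the reductase that regenerates glutathione, was a dim and late responder. Its brighter probe set (1421817_at) read 57.1 and 59.3 in wild type at 0 h, 48.6 and 52.3 at 2 h, and 114.4 and 105.1 at 12 h. The cko arrays gave 36.5 and 39.5, then 20.8 and 32.1, and then 71.2 and 57.6, so both cko arrays of each time were below both wild-type arrays of that time. In wild type Gsr was higher at 12 h than at 0 h (0.76 ± 0.24, adjusted p = 0.0196), a call lost whichever of the 4 arrays behind it was left out (0.71 to 0.81). In cko cells the brighter probe set gave 0.57 ± 0.24 at 12 h against 0 h, not called (0.0585). That value was called after quantile normalization (0.78), under median scaling (0.86), without the trend (0.57) and with probe sets averaged (1.24). The second probe set (1421816_at) showed a rise at 12 h in wild type (1.54 ± 0.38, 0.00415) and in cko cells (1.90 ± 0.38, 0.000624). The genotype difference at 12 h was -0.65 ± 0.24 (0.039) on the brighter probe set, lost whichever of its 4 arrays was left out (-0.77 to -0.53). It was also lost under median scaling (-0.43), with a pseudocount of 1 (-0.77) and without the filter (-0.65). The other probe set gave 0.25 ± 0.38, and with both averaged the value was -0.20 and not called. At 0 h and 2 h the genotype difference was -0.46 ± 0.24 (0.183) and -0.66 ± 0.24 (0.0684). From 2 h to 12 h Gsr rose in cko cells by 0.93 ± 0.24 (0.00594), a call lost without cko 2 h replicate 1 (0.74) or cko 12 h replicate 1 (0.81).

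Txnrd1, the cytosolic selenoprotein that reduces thioredoxin with NADPH, rose with Gclc. For 1421529_a_at the wild-type arrays gave 85.4 and 119.6 at 0 h, 850.7 and 750.4 at 2 h, and 356.7 and 330.8 at 12 h. The cko arrays gave 88.8 and 115.8, 435.2 and 481, and 472.9 and 466.8. The genotypes overlapped at 0 h, wild type went higher at 2 h, and the cko arrays at 12 h lay between those at 2 h (0.04 ± 0.16 from 2 h to 12 h, adjusted p = 0.881).

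The 2 h response of Txnrd1 was 2.80 ± 0.16 in wild type (adjusted p = 2e-09) and 2.01 ± 0.16 in cko cells (5.34e-08). At 2 h cko cells were 1.72-fold lower (-0.78 ± 0.16, 0.00289). The difference of the responses was -0.79 ± 0.22 (0.0274), a call that was lost without wt 0 h replicate 1 (-0.58), wt 2 h replicate 1 (-0.70), cko 0 h replicate 2 (-0.62) or either cko 2 h array (-0.72 and -0.86). At 12 h Txnrd1 was above 0 h by 1.62 ± 0.16 in wild type (1.25e-06) and by 2.05 ± 0.16 in cko cells (6.08e-08). The 12 h genotype difference of 0.43 ± 0.16 (0.0354) was lost whichever of its 4 arrays was left out (0.38 to 0.49). The difference of the 12 h responses (0.43 ± 0.22, 0.144) passed under median scaling (0.72) and without wt 0 h replicate 1 (0.64).

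A second, dimmer Txnrd1 probe set (1424486_a_at) read 3.7 and 16.1 in wild type and 62 and 47.4 in cko cells at 0 h, and 99.3 and 91.4 in wild type against 5.1 and 43.1 in cko cells at 12 h. The cko arrays at 12 h lay far apart. It was thus higher in cko cells at 0 h (1.48 ± 0.41, limma adjusted p = 0.0155) and lower at 12 h (-1.65 ± 0.41, 0.00401). Its 12 h interaction was -3.14 ± 0.58 (0.000612). Its correlation with the brighter probe set was 0.28 over 6 group means, and the remaining Txnrd1 probe set was below the filter. With the tested probe sets averaged, the 12 h genotype difference of Txnrd1 was called in the opposite direction (-0.61, adjusted p = 0.044), as was the 12 h interaction (-1.35, 0.00568), and cko cells were higher at 0 h (0.74, 0.0313). The genotype difference at 2 h (-0.56, 0.0993), the cko response at 12 h (0.53, 0.0676) and the wild-type change from 2 h to 12 h (-0.23, 0.433) were then not called.

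Prdx1, a peroxiredoxin that removes hydrogen peroxide and is recycled by thioredoxin, rose at 12 h. All 5 of its probe sets are also annotated to the pseudogene Gm21399, so the share of the signal that is Prdx1 is uncertain. The fit that kept such probe sets tested 22535 probe sets and was chosen after seeing the files. The brightest (1436691_x_at, whose x marks probes that may cross-hybridize) read 12345 and 12399 in wild type at 0 h, 15341 and 15121 at 2 h, and 23865 and 24369 at 12 h. In cko cells it read 15487 and 15688, 15112 and 15859, and 17752 and 18475. Wild type rose in steps at both times, and cko cells showed a smaller rise at 12 h.

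The 12 h response was 0.96 ± 0.04 in wild type (adjusted p = 5.51e-10) and 0.22 ± 0.04 in cko cells (0.000666), with a difference of -0.75 ± 0.06 (3.88e-07). At 2 h wild type rose by 0.30 ± 0.04 (3.36e-05), and cko cells gave -0.01 ± 0.04 (0.858), which became 0.39 after quantile normalization and 0.28 after median scaling, both called. Between genotypes the brightest probe set was higher in cko cells at 0 h (0.33 ± 0.04, 8.19e-05) and lower at 12 h (-0.41 ± 0.04, 2.27e-06), the latter not called after quantile normalization (-0.02).

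Another Prdx1 probe set gave a different account of the same gene. This probe set (1416000_a_at) read 1941 and 2048 in wild type and 2254 and 1928 in cko cells at 0 h, 7665 and 7536 against 7650 and 8153 at 2 h, and 7232 and 7286 against 12518 and 12397 at 12 h. It rose by 1.92 ± 0.07 in wild type and by 1.91 ± 0.07 in cko cells at 2 h, with no overlap between times. At 12 h it was higher in cko cells (0.78 ± 0.07, limma adjusted p = 3.77e-07), where the other 4 Prdx1 probe sets were lower, and 48.5% of all probe sets in that fit were called. Over the 6 group means it correlated with the brightest probe set at 0.56.

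Srxn1, which repairs overoxidized peroxiredoxins, stayed near the background. The probe set used (1426875_s_at) read 30.5 and 11 in wild type at 0 h, 39 and 55.8 at 2 h and 24.4 and 4.1 at 12 h, and in cko cells 22 and 39.3, 35.6 and 17.9, and 26.1 and 58.1. Most groups overlapped. The sole call among 11 comparisons was the fall from 2 h to 12 h in wild type (-1.14 ± 0.44, adjusted p = 0.04), which was lost without wt 2 h replicate 1 (-1.33), wt 2 h replicate 2 (-0.95) or wt 12 h replicate 2 (-0.64), or with probe sets averaged (-0.54). The 12 h genotype difference of 0.97 ± 0.44 (0.0832) passed after quantile normalization (1.14), under median scaling (1.19) and without wt 12 h replicate 1 (1.47). Of its 3 other probe sets, 2 were below the filter.

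**Figure D2:**
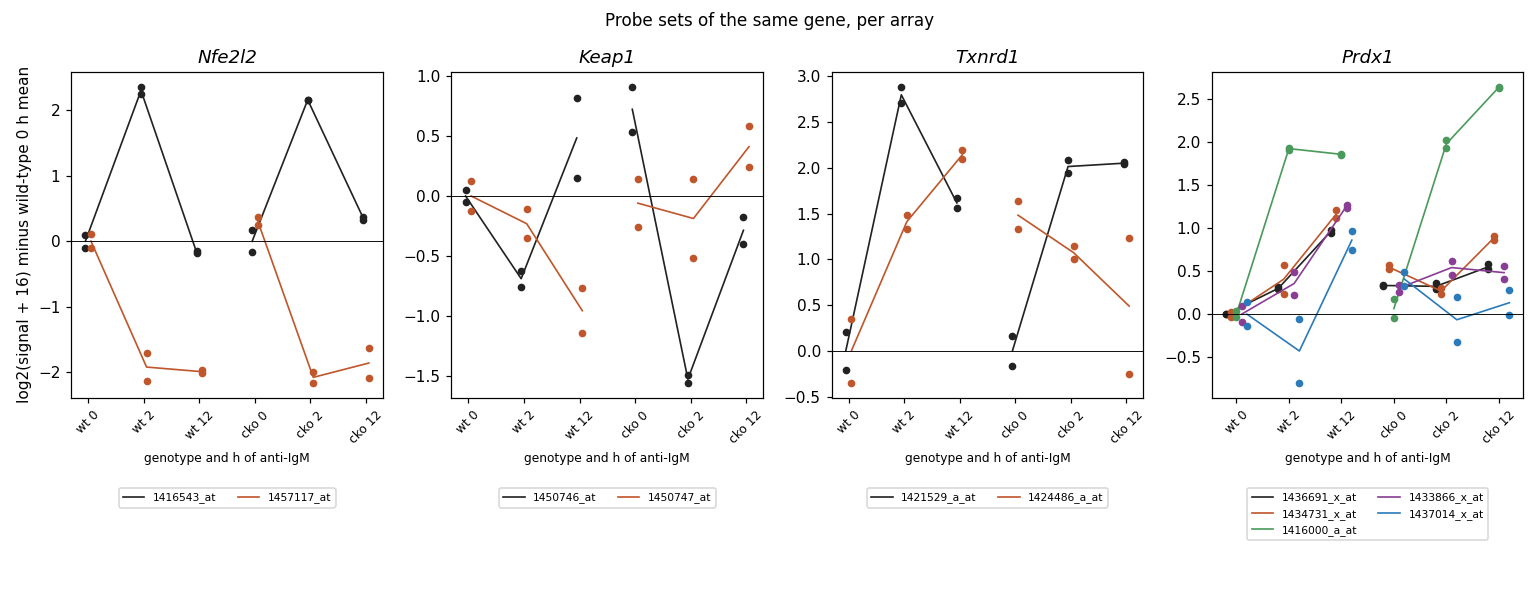
Probe sets above the filter of Nfe2l2, Keap1, Txnrd1 and Prdx1 on each array, as log2(signal + 16) minus the wild-type 0 h mean of that probe set, by genotype and h of anti-IgM, with a colour per probe set and lines through the group means of 2 arrays. The Nfe2l2 probe sets part at 2 h, and those of Keap1, Txnrd1 and Prdx1 order the genotypes differently at 12 h.

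Hmox1 and Nqo1 are the NRF2 targets most often used as readouts in other tissues, and both were dim here. Hmox1, the inducible heme oxygenase (1448239_at), read 35.3 and 29.9 in wild type at 0 h, 98.5 and 70.7 at 2 h, and 65.3 and 18.2 at 12 h. In cko cells it read 44.8 and 30.3, 72.4 and 56.9, and 119.9 and 90.4. The highest group mean was that of cko cells at 12 h, whose arrays overlapped with wild type at 2 h, and the wild-type 12 h arrays spanned the 0 h level. Hmox1 rose at 2 h in wild type (1.04 ± 0.35, adjusted p = 0.0226), and the cko value was 0.60 ± 0.35 (0.163). At 12 h it was higher in cko cells than at 0 h (1.18 ± 0.35, 0.0115) and than in wild type (1.19 ± 0.35, 0.0131).

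Each of these Hmox1 calls was lost without 1 or another single array. The 2 h call of wild type was lost without wt 0 h replicate 1 (1.12), wt 0 h replicate 2 (0.96) or wt 2 h replicate 1 (0.84). The 12 h call of cko cells was lost without cko 0 h replicate 2 (0.98) or cko 12 h replicate 1 (1.004), and that between genotypes at 12 h without wt 12 h replicate 2 (0.56) or cko 12 h replicate 1 (1.01). The fall of Hmox1 from 2 h to 12 h in wild type (-0.92 ± 0.35, limma adjusted p = 0.0424) was lost without either wt 2 h array (-0.72 and -1.12) or wt 12 h replicate 2 (-0.29). The 12 h interaction (1.06 ± 0.50, 0.111) passed under median scaling (1.35) and without wt 12 h replicate 1 (1.68). Splenic macrophages hold much Hmox1. Of 15 macrophage markers 9 were above the filter, with Spic, C1qa, C1qc and Cd163 among those below it. The summed signal of all 15 was 2827 to 2863 in wild type and 3044 to 3189 in cko cells at 0 h, 1240 to 1292 and 695.8 to 754.7 at 2 h, and 1298 to 1403 and 1045 to 1056 at 12 h. The sum was highest at 0 h and was carried there by Lyz2 and Csf1r. The markers did not move together. Of the 9 tested, 1 rose and 6 fell at 2 h in wild type, where 23.3% of all genes rose and 36% fell. Between genotypes at 12 h, 2 were higher and 2 lower in cko cells, against 21.2% and 29.7% of all genes. The mean signal of Cd68 was 40.8 at 0 h, 145 at 2 h and 61.8 at 12 h in wild type and 51.8, 145 and 106 in cko cells. At 12 h Adgre1 read 121 in wild type and 175 in cko cells, and Cd5l 86.7 and 171, but both were lower at 2 h than at 0 h in wild type. Lyz2 (572 and 334) and Csf1r (347 and 132) were lower in cko cells at 12 h. The part of macrophages in the Hmox1 values was not tested.

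Nqo1, the quinone reductase, was a late responder. For 1423627_at the wild-type arrays gave 16.4 and 22.9 at 0 h, 11.2 and 14.7 at 2 h, and 73.5 and 44.1 at 12 h. The cko arrays gave 27.5 and 42.3, 13.8 and 18, and 194.7 and 122.7. In both genotypes the 12 h arrays were above all earlier ones, and both cko arrays at 12 h were above both of wild type. Nqo1 rose at 12 h by 1.05 ± 0.32 in wild type (adjusted p = 0.0155) and by 1.76 ± 0.32 in cko cells (0.000286). From 2 h to 12 h, within the upper side of the actin division, the cko rise was 2.42 ± 0.32 (2.38e-05).

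The wild-type 12 h call of Nqo1 was lost without wt 0 h replicate 1 (0.92) or wt 12 h replicate 1 (0.76). Nqo1 was higher in cko than in wild-type cells at 12 h (1.22 ± 0.32, limma adjusted p = 0.00566), a call lost without wt 12 h replicate 2 (0.93) or cko 12 h replicate 1 (0.92). The difference of the 12 h responses did not pass (0.71 ± 0.45, 0.23).

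Counted over the 9 genes in the shared fit, the responses to anti-IgM stood against a background in which a large part of all 12190 genes changed. At 2 h in wild type 5 rose (Nfe2l2, Hmox1, Gclc, Gclm and Txnrd1) and 1 fell (Keap1), while 59.3% of all genes were called, 23.3% as higher and 36% as lower. The median of the 9 was 1.04 against -0.24 over all genes. In cko cells 4 rose (Nfe2l2, Gclc, Gclm and Txnrd1) and Keap1 fell at 2 h, with 62.8% of genes called (23.8% higher and 39% lower) and medians of 0.60 and -0.32. At 12 h in wild type 6 rose and 0 fell, with 47.4% of genes called (24.5% higher and 22.9% lower) and medians of 0.69 and 0.03. The 6 were Keap1, Nqo1, Gclc, Gclm, Gsr and Txnrd1. Fewer were called whichever of the arrays compared was left out, and fewest without wt 0 h replicate 1. At 12 h in cko cells 6 rose (Nfe2l2, Hmox1, Nqo1, Gclc, Gclm and Txnrd1) and Keap1 fell, with 58.5% called (25.7% higher and 32.8% lower) and medians of 1.18 and -0.20. In each of these 4 responses the share of the 9 called in either direction was near that of all genes or above it, and more of the calls were rises. Under median scaling the median of all genes moved to -0.04 at 2 h in wild type, to -0.03 at 2 h in cko cells and to 0.09 at 12 h in cko cells, and no called value of the 9 genes turned. The share of rises among all called genes then moved from 37.8 to 51.1% at 2 h and from 43.9 to 60.7% at 12 h in cko cells.

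From 2 h to 12 h in wild type all 9 were called, 3 higher (Keap1, Nqo1 and Gsr) and 6 lower, where 56.8% of all genes were (35% higher and 21.8% lower). The share of rises among all called genes there moved from 61.6 to 50.5% under median scaling. In cko cells 4 rose over that span (Keap1, Nqo1, Gclm and Gsr) and 2 fell (Nfe2l2 and Gclc), with 48.1% of genes called (29.8% higher and 18.4% lower). Gclm was thus among the 6 lower in wild type and among the 4 higher in cko cells. The comparisons within a genotype share their 0 h or 2 h arrays and are given side by side.

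**Figure D3:**
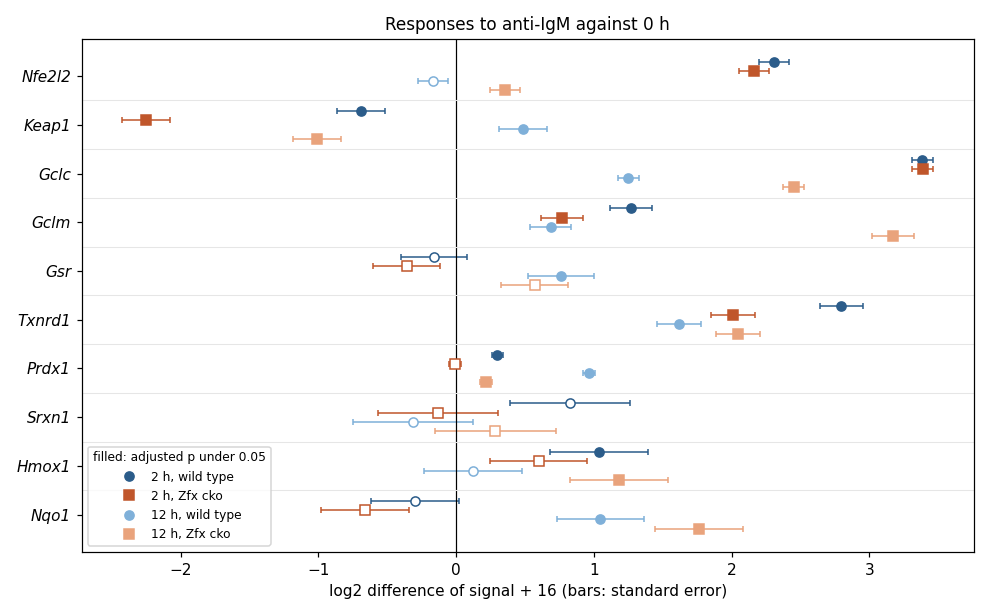
Log2 difference ± SE of each gene for both times of anti-IgM against the start, in wild type and cko, from groups of 2 arrays, with filled points for adjusted p under 0.05. Gclc, Nfe2l2 and Txnrd1 lie above 2 at 2 h in both genotypes and Gclm lies above 3 at 12 h in cko cells.

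Between the genotypes at 0 h 1 of the 9 genes was higher in cko cells (Keap1) and 1 lower (Gclm), while 30.9% of all genes were called, 15.6% as higher and 15.3% as lower, a split of 50.5% higher that became 37.8% under median scaling. Without wt 0 h replicate 2 or cko 0 h replicate 1 the count was 1. The other 7 lay between -0.46 (Gsr) and 0.51 (Nqo1), each with an SE of 0.07 to 0.44, so that differences of that size could not be told from 0 for the dim genes. Nfe2l2 (-0.00 ± 0.11) and Txnrd1 (0.00 ± 0.16) had the values closest to 0.

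At 2 h 0 genes were higher and 3 were lower in cko cells (Keap1, Gclm and Txnrd1), against 26.3% of all genes called (11.7% higher and 14.5% lower) and a median of -0.59 for the 9 against -0.02 for all. This comparison lies within the upper side of the actin division, and the count was 3 whichever array was left out. With probe sets averaged per gene it was 1, since Keap1 and Txnrd1 were then not called. The values of the other 6 ran from -0.66 (Gsr) to 0.14 (Nqo1), and 5 of those 6 were below 0.

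At 12 h 6 were higher in cko cells (Nfe2l2, Hmox1, Nqo1, Gclc, Gclm and Txnrd1) and 2 lower (Keap1 and Gsr), against 50.9% of all genes called (21.2% higher and 29.7% lower), with medians of 0.97 for the 9 and -0.17 for all. Median scaling moved the share of higher among all called genes from 41.7 to 58.1%. Fewer genes were called whichever of the arrays compared was left out, and fewest without wt 12 h replicate 2 or cko 12 h replicate 1. The actin ratio was 2.11 and 2.27% on the wild-type arrays and 18.96 and 19.06% on the cko arrays here. In a model with a term for the actin division, 1 genotype effect and 1 effect per time, the genotype effect was called for 2 genes. For Gclm it was -1.11. The division separates the genotypes only at 12 h, so its term takes up the 12 h difference. The genotype effect then comes from the 0 h and 2 h arrays, and it does not test the 12 h difference. That model allows no interaction, so it cannot hold a genotype difference that changes with time.

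**Figure D4:**
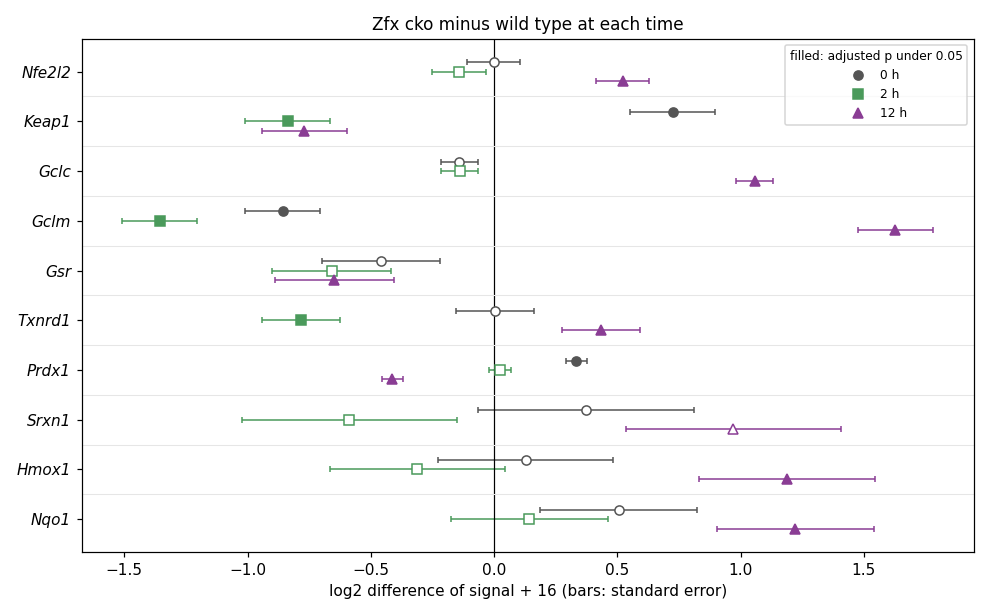
Log2 difference ± SE between cko and wild-type cells at 0, 2 and 12 h for each of the 10 genes, from groups of 2 arrays, with filled points for adjusted p under 0.05. Gclm is below 0 at 0 h and 2 h and above 0 at 12 h, and Keap1 is above 0 at 0 h and below it later.

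The test of whether the genotypes responded differently called 2 of 9 genes at 2 h, Keap1 and Txnrd1, both lower in cko cells, where 19% of all genes were called (7.96% higher and 11.1% lower). At 12 h it called 4, with Nfe2l2, Gclc and Gclm higher in the cko response and Keap1 lower, where 42.6% were called (18.5% higher and 24.1% lower). The share of higher among all called genes moved under median scaling from 41.8 to 56.6% at 2 h and from 43.4 to 65% at 12 h. The 12 h value of Nfe2l2 (0.52 ± 0.15, adjusted p = 0.0151) was lost without wt 0 h replicate 1 (0.42) or cko 0 h replicate 2 (0.36). Gclm had the largest of the 12 h values, followed by Keap1 (-1.49 ± 0.24, 0.000232) and Gclc (1.20 ± 0.10, 7.64e-07).

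The genes with the widest range over the 6 group means were Gclc (3.53), Gclm (3.17) and Txnrd1 (2.80), then Nqo1 (2.57), Nfe2l2 (2.47) and Keap1 (2.25). The narrowest were Srxn1 (1.14) and Prdx1 (0.96). Across the 6 group means of the brightest probe sets Gclc went with Txnrd1 (r = 0.95) and with Nfe2l2 (0.86). On these probe sets Keap1 ran against Nfe2l2 (-0.87) and Gclc (-0.83). The tested probe sets of a gene did not follow each other, at -0.54 for Nfe2l2, -0.22 for Keap1 and 0.28 for Txnrd1. The pattern thus holds for the brightest probe sets only. These correlations rest on 6 points that share time and the actin division, and they carry no p. Among all genes Rbm17 (0.999), Chst10 (0.997) and Ap3s1 (0.997) were most like Gclc. Prrc1 (0.991), Adipor1 (0.988) and Ndufa8 (0.973) were most like Gclm, and Pafah1b2 (0.989), Zmynd19 (0.988) and Nup98 (0.988) most like Txnrd1. With 12190 genes and 6 points, values this high describe the pattern and no more.

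Of 15 tested genes for partners and regulators of NRF2, 8 rose and 5 fell at 2 h in wild type (median 0.26), where 23.3% of all genes rose, 36% fell and the median was -0.24. In cko cells 9 rose and 2 fell (0.26), where 23.8% of all genes rose, 39% fell and the median was -0.32. Maff, a small MAF protein that pairs with NRF2, rose by 3.98 ± 0.14 in wild type (limma adjusted p = 2.31e-11) and by 3.73 ± 0.14 in cko cells, from mean signals of 214 and 328 to 3588 and 4538. The coactivator Crebbp rose by 2.15 ± 0.10 in wild type and by 2.34 ± 0.10 in cko cells. At 12 h Crebbp was higher in cko than in wild-type cells (1.93 ± 0.10, 2.4e-09), and Mafk (-0.94 ± 0.12) and Maff (-0.77 ± 0.14) were lower. Between genotypes 1 partner was higher and 3 lower at 0 h, where 30.9% of all genes were called, among them Bach1, a repressor at the same elements (-0.75 ± 0.07, 1.02e-05), a call lost with its probe sets averaged (-0.23).

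Of 21 tested other NRF2 targets, 1 rose and 9 fell at 2 h in wild type (median -0.27), where the median of all genes was -0.24 and 59.3% were called, 23.3% higher and 36% lower. In cko cells 1 rose and 12 fell (-0.47), where the median of all genes was -0.32 and 62.8% were called, 23.8% higher and 39% lower. These shares called were near or below those of all genes. Gstp1, a glutathione transferase, fell by 1.84 ± 0.08 in wild type and fell by 2.03 ± 0.08 in cko cells. At 12 h in wild type 6 rose and 3 fell, among them the pentose phosphate enzymes Tkt (1.66 ± 0.05, limma adjusted p = 2.11e-11) and Pgd (1.03 ± 0.05, 1.45e-09), which feed NADPH production, and Blvrb fell (-1.11 ± 0.14). In cko cells 8 rose and 5 fell at 12 h. Among all genes 47.4% were called at 12 h in wild type and 58.5% in cko cells. Taldo1, of the same pathway as Tkt and Pgd, was higher in cko than in wild-type cells at 12 h (1.17 ± 0.07). Tkt and Pgd went the other way there. The mean signal of Tkt at 12 h was 27260 in wild type and 12230 in cko cells, where it was 14030 at 0 h. That of Pgd at 12 h was 9120 in wild type and 5885 in cko cells. Osgin1 was lower in cko cells at 12 h (-2.62 ± 0.25, 1.05e-06).

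Among 18 tested genes of the thioredoxin and peroxiredoxin system, 9 rose and 6 fell at 2 h in wild type, and 7 rose and 4 fell in cko cells, while 59.3% and 62.8% of all genes were called. Txnrd3, a thioredoxin reductase paralogous to Txnrd1, rose by 2.91 ± 0.11 in wild type (limma adjusted p = 3.29e-11) and by 2.27 ± 0.11 in cko cells, and the mitochondrial Txnrd2 fell by 1.51 ± 0.14 and 1.14 ± 0.14. At 12 h in cko cells 12 rose and 3 fell (median 0.79, and -0.20 over all genes, of which 58.5% were called), with Txn1 up by 2.25 ± 0.06 and Prdx2 by 1.88 ± 0.08. Prdx2 was lower in cko than in wild-type cells at all times, by 1.77 ± 0.08 at 0 h, 1.33 ± 0.08 at 2 h and 0.63 ± 0.08 at 12 h. Erythroid cells hold much Prdx2. Of 8 listed erythroid markers 5 were on the array and 3 above the filter. The summed signal of those 5 was 1267 to 1416 in wild type and 259.5 to 268.7 in cko cells at 0 h. The part of erythroid cells in the Prdx2 values was not tested.

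In the rest of glutathione metabolism 2 genes rose and 6 fell of 12 tested at 2 h in wild type (median -0.77). Over all genes the median was -0.24 and 59.3% were called, 23.3% higher and 36% lower, so the share called was near that of all genes. Gsto1 rose by 1.59 ± 0.08 and Chac1, which degrades glutathione, by 1.62 ± 0.25, while the peroxidase Gpx1 fell by 1.74 ± 0.08 (limma adjusted p = 3.33e-10). Chac1 was higher in cko cells at every time, by 2.42 ± 0.25 at 0 h (1.28e-05), 2.53 ± 0.25 at 2 h (9.78e-06) and 2.80 ± 0.25 at 12 h (4.48e-07). Its mean signals were 28.9, 128 and 108 in wild type and 227, 782 and 838 in cko cells.

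Of 9 tested genes for superoxide handling, catalase and the NADPH oxidase, 2 rose and 6 fell at 2 h in wild type, and 3 rose and 5 fell in cko cells, while 59.3% and 62.8% of all genes were called, 36% and 39% as lower. Catalase (Cat) fell by 2.65 ± 0.18 in wild type and by 3.62 ± 0.18 in cko cells, and the oxidase subunit Cyba rose by 1.21 ± 0.06 in each. At 12 h in wild type Sod1 was up by 1.22 ± 0.08. Sod1 was lower in cko than in wild-type cells at 12 h (-1.63 ± 0.08, limma adjusted p = 2.08e-09).

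For heme and iron 3 of 10 genes rose and 5 fell at 2 h in wild type, against 23.3% and 36% of all genes, with the transferrin receptor Tfrc up by 1.78 ± 0.07 (limma adjusted p = 3.1e-11). Between genotypes 0 of 10 were higher and 5 lower in cko cells at each time, where 15.3% of all genes were lower at 0 h, 14.5% at 2 h and 29.7% at 12 h. With probe sets averaged per gene the count called was 3 at 2 h and 3 at 12 h, and under median scaling it was 8 at 12 h. The heme exporter Flvcr1 was lower in cko cells at 0 h by 1.78 ± 0.13 (8.69e-07) and at 12 h by 2.06 ± 0.13 (1.53e-08). The erythroid markers moved with the genotype at each time, with summed signals of 1267 to 1416 in wild type and 259.5 to 268.7 in cko cells at 0 h, 444.8 to 467.2 and 112.2 to 125.6 at 2 h, and 435.3 to 439.7 and 102.2 to 115.1 at 12 h. Their part in these values was not tested.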

How the data were processed

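RNA of sorted follicular B cells, 100 ng per sample amplified in 2 rounds, was hybridized to 12 mouse expression arrays at 10 µg each, per the labels' protocols. Arrays were processed with GCOS 1.4, per the submitters' processing notes. The deposited values are signal intensities per probe set, with the summarisation method not given in the sources used here. Genotype and time were taken from the sample titles, and 0 columns were left unassigned.

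Of 45101 probe sets, 64 controls, 9160 without a gene symbol and 932 with several were left out. Of the 34945 with 1 symbol, 21906 had a mean log2(signal + 16) above 5.14, the 40th percentile, and went into limma 3.58.1 under R 4.3.3 without further normalization, on all 12 arrays with 1 mean per group and an intensity trend (6 residual and 7.5 prior degrees of freedom). There were 11 comparisons, two-sided, with Benjamini-Hochberg adjustment over all probe sets. The brightest probe set stands for a gene, which gave 12190 genes. Of the 24 probe sets of the 10 genes 16 were in this fit, 3 were below the filter and the 5 of Prdx1 carry several symbols. The procedure was tested on simulated data.

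The genes and related lists were chosen with earlier results of these data known. Every one of the 10 genes is named. Of a related list the text names up to 2 called genes with the largest rise and fall in a comparison, and for the 3 widest-ranging genes the 3 most correlated ones. Alternatives were median scaling, quantile normalization, a pseudocount of 1 or 64, a filter at the 60th percentile or none, no trend, only the groups compared, a replicate block, 1 probe set per gene before the fit, probe sets averaged per gene, leaving out each array, and a term for the actin division. Detection calls and probe coordinates were not used here.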

Additional observations from a re-analysis of the deposited data

Results flagged for a closer look

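Listed here are the probe sets for which the test of the difference between the cko and wild-type responses to anti-IgM passed at a limma adjusted p under 0.05, with the difference as cko minus wild type on the log2 scale. At 2 h these were the brighter Keap1 probe set (-1.56), both tested Txnrd1 probe sets (-0.79 for the brighter and -1.82 for the dimmer) and, in the fit that kept probe sets of several symbols, the Prdx1 probe sets with the highest and the next highest signal (-0.31 and -0.69). The value of -0.31 was not called after quantile normalization (-0.15) or median scaling (-0.22).

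At 12 h the brighter Nfe2l2 probe set differed by 0.52, both Gclc probe sets by 1.20 and 1.28, and both Gclm probe sets by 2.48 and 1.34. The Keap1 probe sets went opposite ways, -1.49 for the brighter and 1.43 for the dimmer, and the dimmer Txnrd1 probe set gave -3.14. Of the 5 Prdx1 probe sets, 4 gave -0.75, -0.83, -1.08 and -1.13, and the remaining probe set 0.71. The 12 h comparison crosses the division of the arrays by the actin control, whose part cannot be told apart from genotype and time.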

How the results depend on the processing

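Of 1776 values of the 10 genes under the alternatives, 1628 kept their side of the threshold, and the called ones among them kept their direction. A change of sign with neither value called was counted among these. With the direction kept, 102 lost and 21 gained a call. Another 25 changed sign with a call under the main setting, the alternative or both. Where no cause is given, the cause was not tested. The counts of genes called moved under these settings. At 12 h between genotypes, 5 were called with the filter at the 60th percentile. The genotype effect of the model with the actin division term, which comes from the 0 h and 2 h arrays, was called for 2. From 2 h to 12 h in wild type, 5 were called with that filter, which tests fewer genes. The effect of that span in the actin division model, shared by both genotypes, was called for 5. At 2 h between genotypes, 1 was called with probe sets averaged per gene. The 2 h interaction gave 1 with median scaling, 1 without the trend, 1 with only the groups compared and 1 with the mean of probe sets.

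With each array left out in turn, the counts ran from 1 to 2 between genotypes at 0 h, 3 to 3 at 2 h and 4 to 7 at 12 h. They ran from 5 to 6 in wild type at 2 h, 3 to 4 at 12 h and 7 to 9 from 2 h to 12 h. In cko cells they ran from 5 to 5, 5 to 7 and 5 to 6, and in the interactions from 1 to 2 at 2 h and 3 to 5 at 12 h. The lone array left in a group was assumed to vary like the other groups.

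The model with the actin division term allows no interaction and has 1 genotype effect and 1 effect per time for both genotypes. Its genotype effect comes from the 0 h and 2 h arrays, since the term takes up the genotype difference at 12 h. Its 12 h effect comes from the wild-type arrays at 12 h, set against a 0 h level fitted to both genotypes. Its 2 h effect is what remains once the division term is taken off, and the 12 h genotype difference beyond the genotype effect sets that term. Hence its values are not estimates of the comparisons they are set against below. A changed sign does not test the value it is set against. Against the 12 h genotype differences, the genotype effect was -0.072 for Nfe2l2, -0.091 for Hmox1, -0.14 for Gclc, -1.11 for Gclm, -0.39 for Txnrd1, 0.18 for Prdx1, -0.16 for Crebbp, 0.28 for Mafk, 0.46 for Maff, -0.065 for Taldo1 and -0.071 for Prdx4. Against the 0 h difference it was -0.057 for Keap1. Against the 12 h responses of cko cells, the 12 h effect was -0.20 for Nfe2l2, 0.094 for Keap1, -0.42 for Crebbp, 0.021 for Maff, -0.32 for Gstm5 and 0.32 for Osgin1. The 2 h effect was -1.71 for Gclm against both genotypes and -0.46 for Hmox1 against wild type. Against cko cells it was 0.74 for Prdx1 and -1.23 for Taldo1. Against the wild-type change from 2 h to 12 h, the model gave 2.27 for Gclm, 0.47 for Hmox1 and 0.18 for Srxn1.

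With probe sets averaged per gene, Nfe2l2 was -0.11 at 2 h and -0.91 at 12 h in cko cells, Keap1 0.30 between genotypes at 12 h and -0.24 in wild type at 12 h, Txnrd1 -0.61 between genotypes at 12 h and -1.35 in the 12 h interaction, Prdx1 0.28 at 2 h in cko cells and Prdx4 -0.10 between genotypes at 12 h. Prdx1 at 2 h in cko cells was 0.39 after quantile normalization and 0.28 after median scaling.

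The replicate numbers did not pair the arrays, since differences between duplicates correlated at -0.01 to 0.02 over 15 pairs of groups. With a replicate block 8 genes were called between genotypes at 12 h and 6 in wild type at 2 h, as without it, and no count of the 10 genes moved. Signal near background limits Srxn1, Nqo1, Hmox1 and Gsr.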
